A study of Mus musculus with 8 samples.

Results

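The 10 genes described here encode platelet-derived growth factor (PDGF) and vascular endothelial growth factor (VEGF) ligands and receptors: Pdgfa, Pdgfb, Pdgfc, Pdgfd, Pdgfra, Pdgfrb, Vegfa, Vegfb, Vegfc and Kdr. They were taken by gene name from a deposited table of raw read counts for 43346 mouse genes, in which each name occurred once. The table covers 8 libraries of poly-A RNA from untreated cells grown to near confluence, 4 of LLC1 and 4 of MLE12. LLC1 is the Lewis lung carcinoma line of C57BL mouse origin, and MLE12 is a mouse lung epithelial line derived from a tumour of transgenic animals, in which the promoter of surfactant protein C drove SV40 large T antigen. Each is 1 established line, so a difference between them is a difference between lines and not between carcinoma and normal lung. The labels do not say whether separate cultures gave the 4 libraries of each line, and the spread behind each p-value may therefore be technical.

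PDGF ligands are secreted as disulphide-linked dimers. Pdgfa and Pdgfb encode the classical chains, while Pdgfc and Pdgfd encode chains held latent by a CUB domain until a protease removes it. PDGF-A and PDGF-C act mainly on the receptor encoded by Pdgfra, PDGF-B acts on both receptors and PDGF-D acts mainly on the product of Pdgfrb. In lung development epithelial PDGF-A drives Pdgfra-positive myofibroblast progenitors, and both receptors are usually found on mesenchymal cells. Vegfa encodes the main angiogenic ligand of the tyrosine kinase receptor encoded by Kdr, Vegfb encodes a ligand of the receptor encoded by Flt1, and Vegfc encodes a lymphangiogenic ligand of the receptor encoded by Flt4. In the lung the epithelium is a known source of Vegfa, and Kdr is a gene of endothelial cells.

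Library totals ran from 46840648 to 55285307 counts in LLC1 and from 48643667 to 76722481 counts in MLE12. Levels are given as CPM, counts per 1000000 counts of scaled library size, and fold changes as log2 of LLC1 over MLE12 ± SE from edgeR's quasi-likelihood test, with p-values adjusted by Benjamini-Hochberg over all 18546 genes tested. A count of 0 allows up to 3 counts. That is 0.0391 to 0.0640 per 1000000 counts of the unscaled library total, depending on the library. Most lung epithelial markers were higher in MLE12, as its label implies, but not all were present there. The summed level of the 9 lung epithelial markers was 18.4 to 20.3 CPM across the LLC1 libraries and 924 to 974 CPM across the MLE12 libraries, and Nkx2-1, the lung epithelial transcription factor gene, stood at 0.664 ± 0.109 CPM in LLC1 cells and 147 ± 6.39 CPM in MLE12 cells (SD, n = 4 each). All 7 lung epithelial markers tested were called toward MLE12, beside 40.9% of all genes tested. Markers nearly absent from LLC1 entered the test through their MLE12 level, so the count only describes the list. Krt19 stood at 3.80 ± 0.423 CPM in LLC1 cells and 554 ± 16.4 CPM in MLE12 cells, which is most of the MLE12 sum in CPM. Foxa2 was at 13.8 ± 0.657 CPM in LLC1 cells and 38.9 ± 1.94 CPM in MLE12 cells. Sftpa1 had 0 counts in LLC1 and 7 in MLE12, and Cldn18 had 36 counts in LLC1 and 14 in MLE12. The leukocyte list summed to 17.8 to 20.4 CPM across the LLC1 libraries and 13.8 to 16.4 CPM across the MLE12 libraries. Its 2 tested genes made up most of the sum, with Cd68 called toward LLC1 and Csf1r toward MLE12. Cd68 stood at 8.37 ± 0.332 CPM in LLC1 cells and 2.17 ± 0.235 CPM in MLE12 cells. Csf1r stood at 10.5 ± 0.788 CPM in LLC1 cells and 12.8 ± 1.02 CPM in MLE12 cells. The defining gene of the list, Ptprc, had 0 counts in LLC1 and 2 in MLE12.

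The 300 bases around the start of transcription are shown for 4 of the genes, from 250 before to 50 after the start (RefSeq, GRCm38.p6). Pdgfra and Pdgfc are the members with the largest differences toward LLC1, Pdgfa is the most abundant PDGF ligand of MLE12, and Vegfa is abundant in both lines. Capitals mark GC boxes, the letters GGGCGG on either strand.
Pdgfra (chr5:75152001-75152300, plus strand): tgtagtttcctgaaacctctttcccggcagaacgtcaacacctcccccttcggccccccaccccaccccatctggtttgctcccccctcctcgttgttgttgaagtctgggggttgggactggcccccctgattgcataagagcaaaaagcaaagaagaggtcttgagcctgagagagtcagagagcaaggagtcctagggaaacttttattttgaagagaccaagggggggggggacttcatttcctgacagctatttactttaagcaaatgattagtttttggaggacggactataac
Pdgfc (chr3:81036166-81036465, plus strand): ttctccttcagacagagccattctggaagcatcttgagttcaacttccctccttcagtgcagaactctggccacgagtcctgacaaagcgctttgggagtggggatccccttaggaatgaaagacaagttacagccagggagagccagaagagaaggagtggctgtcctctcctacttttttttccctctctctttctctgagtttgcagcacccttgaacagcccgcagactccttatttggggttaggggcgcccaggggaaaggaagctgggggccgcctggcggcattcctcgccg
Pdgfa (chr5:138994895-138995194, minus strand): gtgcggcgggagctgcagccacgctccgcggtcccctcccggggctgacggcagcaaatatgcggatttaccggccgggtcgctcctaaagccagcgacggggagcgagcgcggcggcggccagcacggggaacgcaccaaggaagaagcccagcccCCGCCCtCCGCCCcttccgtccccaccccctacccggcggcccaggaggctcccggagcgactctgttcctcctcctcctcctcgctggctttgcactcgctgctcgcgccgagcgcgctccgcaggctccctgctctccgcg
Vegfa (chr17:46032328-46032627, minus strand): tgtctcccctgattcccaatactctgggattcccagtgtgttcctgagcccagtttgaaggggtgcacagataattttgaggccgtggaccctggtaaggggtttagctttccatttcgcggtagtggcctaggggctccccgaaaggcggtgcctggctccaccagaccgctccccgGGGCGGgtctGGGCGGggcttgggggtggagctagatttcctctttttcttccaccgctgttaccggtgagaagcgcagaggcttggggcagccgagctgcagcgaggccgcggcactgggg

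The windows of Pdgfra and Pdgfc held 0 GC boxes, while those of Pdgfa and Vegfa held 2 each. Of 32851 such windows in the table, 35.7% held at least 1. GC content was 51.0% for Pdgfra and 55.0% for Pdgfc, near the median of 52.7% over all windows, against 73.3% for Pdgfa and 62.0% for Vegfa. Pdgfra had 5 CpG dinucleotides and Pdgfc had 8, against 37 for Pdgfa and 16 for Vegfa, with a median of 7 over all windows. The windows of Vegfb and Vegfc, also higher in LLC1, held 4 and 2 GC boxes and had a GC content of 75.3% and 70.3%. That of Pdgfd, higher in MLE12, held 0 GC boxes at a GC content of 56.7%. GC boxes thus did not follow the direction of the difference. The letters TATAAA occurred in 13.6% of windows and in none of the 4 shown, and ACGTG, the core of the hypoxia response element, occurred in 19.6% and in none of these 4. The 8 members with a window listed included 1 with TATAAA, Pdgfd, and 0 with ACGTG. Sequence outside these windows, such as that further upstream, was not searched. The lack of ACGTG in a window, that of Vegfa included, therefore does not show that the gene lacks a hypoxia response element. The table lists 2 starts each for Pdgfa and Vegfa, and the Pdgfa start shown lies 2426 bases inside the outermost start of the gene in the deposited coordinates. A match is only a match of letters and was not tied to the counts.

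The PDGF ligands divided between the lines. LLC1 carried mainly Pdgfc with a lower level of Pdgfa, while MLE12 carried Pdgfa and Pdgfb with similar low levels of Pdgfd and Pdgfc. Pdgfc (ENSMUSG00000028019, chromosome 3, 81036416 to 81214040, mm10) had 54.4, 50.9, 55.3 and 52.0 CPM in the 4 LLC1 libraries, against 0.621, 0.530, 0.939 and 0.820 CPM in the 4 MLE12 libraries. Every LLC1 library lay above every MLE12 library, by 73.1-fold between the means (log2 fold change 6.20 ± 0.10, adjusted p = 2.7e-20). An antisense gene, Gm16000, shares 147 exonic bases with Pdgfc, or 2.89% of them. That gene stood at 4.42 ± 0.632 CPM in LLC1 cells and 0.0487 ± 0.0186 CPM in MLE12 cells (SD, n = 4 each). Whether counting used strand is not given in the sources used here, so reads in the shared bases cannot be assigned to 1 of the genes.

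Pdgfa (ENSMUSG00000025856, chromosome 5, 138976014 to 138997370) had 5.78, 5.54, 6.53 and 6.68 CPM in the LLC1 libraries, against 43.3, 37.9, 40.3 and 40.6 CPM in the MLE12 libraries. The lines did not overlap, and the mean was 6.61-fold higher in MLE12 (-2.72 ± 0.07, adjusted p = 2.0e-17). An antisense gene, 6330403L08Rik, shares 813 exonic bases with Pdgfa, or 26.1% of them. It stood at 2.77 ± 0.415 CPM in LLC1 cells and 6.16 ± 0.358 CPM in MLE12 cells (SD, n = 4 each), and its part in the Pdgfa counts was not tested.

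Pdgfb (ENSMUSG00000000489, chromosome 15, 79995900 to 80014808) was close to absent in LLC1. Its raw counts were 1, 4, 0 and 1 in the LLC1 libraries, against 490, 591, 607 and 365 in the MLE12 libraries, or 6.34, 7.84, 7.70 and 7.30 CPM there. From the summed counts the level was 240.2-fold higher in MLE12, with a 95% interval of 110.2 to 655 that covers counting error only. The fitted log2 fold change of -7.81 ± 0.27 (adjusted p = 1.8e-15) depends on the prior count, and it was -8.84 ± 0.31 without LLC1 replicate 2, which holds 4 of the 6 counts. Whether the 6 counts are LLC1 transcripts was not tested.

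Pdgfd (ENSMUSG00000032006, chromosome 9, 6168612 to 6378843) was low in MLE12 as well. Its raw counts were 0, 2, 0 and 1 in the LLC1 libraries, against 48, 60, 55 and 46 in the MLE12 libraries, which is 0.621, 0.795, 0.698 and 0.920 CPM there. The 2 sets of libraries did not overlap, and the summed counts gave a level 48.9-fold higher in MLE12 (95% interval 16.5 to 239 for counting error; fitted log2 fold change -5.46 ± 0.53, adjusted p = 1.3e-08). Without LLC1 replicate 2 the fitted value was -6.39 ± 0.65. Both Pdgfb and Pdgfd passed the filter on low counts through the MLE12 libraries alone, with 0 LLC1 libraries above its level of 0.186 CPM.

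**Figure D1:**
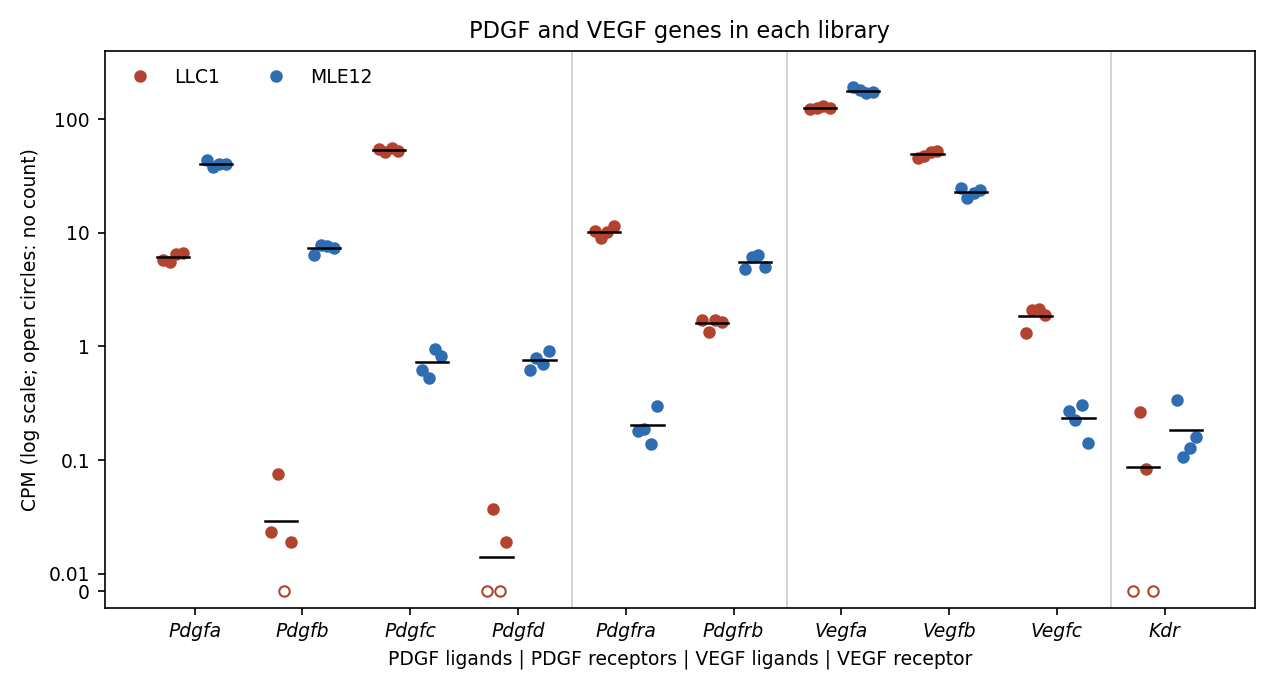
Level of the 10 genes in each library, in CPM on a log axis, with LLC1 left of MLE12 for each gene; each point is 1 library, black bars are means of 4 libraries, and open circles at the bottom are libraries with no count. The lines are apart for 9 genes and overlap for Kdr, and the widest gaps are those of Pdgfb, Pdgfc, Pdgfd and Pdgfra.

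The receptors for these ligands differed in opposite directions. Pdgfra (ENSMUSG00000029231, chromosome 5, 75152291 to 75198204), the receptor of PDGF-A and PDGF-C and a marker of mesenchymal progenitors, had 10.3, 9.00, 10.1 and 11.4 CPM in the LLC1 libraries, against 0.181, 0.186, 0.140 and 0.300 CPM in the MLE12 libraries. The MLE12 values rest on 14, 14, 11 and 15 counts, and its level was 50.7-fold higher in LLC1 (5.71 ± 0.17, adjusted p = 1.4e-16). In GENCODE M21, Gm42802 and Gm42803 share 456 and 166 exonic bases with Pdgfra on the opposite strand, and they were not analysed here. Pdgfrb (ENSMUSG00000024620, chromosome 18, 61045150 to 61085061), the PDGF-B and PDGF-D receptor of pericytes and fibroblasts, had 1.71, 1.35, 1.72 and 1.66 CPM in the LLC1 libraries, against 4.79, 6.07, 6.43 and 4.96 CPM in the MLE12 libraries. The lines did not overlap, and the mean was 3.46-fold higher in MLE12 (-1.80 ± 0.14, adjusted p = 6.2e-10). Neither receptor reached 12 CPM in any library.

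Because longer transcripts yield more reads, levels of the ligands and receptors were ranked and turned into shares per kilobase of the deposited gene length (RPKM). Per length, Pdgfc made up 84.1 ± 1.12% of the PDGF ligand level in LLC1 and 0.898 ± 0.221% in MLE12 (SD, n = 4 each). The share of Pdgfa was 15.8 ± 1.16% in LLC1 and 81.8 ± 2.09% in MLE12, and that of Pdgfb 0.0832 ± 0.0933% in LLC1 and 15.8 ± 1.87% in MLE12. Pdgfd contributed 0.0377 ± 0.0485% in LLC1 and 1.53 ± 0.282% in MLE12. Without LLC1 replicate 2 the LLC1 shares were 0.0386% for Pdgfb and 0.0164% for Pdgfd. The summed PDGF ligand level was 12.4 ± 0.473 RPKM in LLC1 and 15.9 ± 0.497 RPKM in MLE12, so the lines were far closer in the sum than in its make-up. Which line had the higher sum depended on length. Summed as CPM, every LLC1 library lay above every MLE12 library. Of the summed level of both PDGF receptors, Pdgfra made up 83.8 ± 1.01% in LLC1 and 2.96 ± 1.26% in MLE12. These shares are descriptions without a test.

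Vegfa and Vegfb were abundant in both lines and differed much less, while Vegfc was low in both. Vegfa (ENSMUSG00000023951, chromosome 17, 46016993 to 46032377) had 122, 125, 129.5 and 126 CPM in the LLC1 libraries, against 190.3, 179, 171 and 174 CPM in the MLE12 libraries. The lines did not overlap, but the mean was only 1.42-fold higher in MLE12 (-0.51 ± 0.04, adjusted p = 2.4e-09). Vegfb (ENSMUSG00000024962, chromosome 19, 6982473 to 6987651), which encodes a ligand linked to survival and fatty acid handling in heart and muscle, had 45.9, 47.2, 51.2 and 52.2 CPM in the LLC1 libraries, against 25, 20.1, 22.5 and 23.9 CPM in the MLE12 libraries. Its mean was 2.15-fold higher in LLC1, with no overlap (1.10 ± 0.07, adjusted p = 9.7e-12). Vegfc (ENSMUSG00000031520, chromosome 8, 54077532 to 54186454) had 1.32, 2.10, 2.15 and 1.90 CPM in the LLC1 libraries, against 0.272, 0.225, 0.305 and 0.140 CPM in the MLE12 libraries. It was 7.93-fold higher in LLC1 (2.94 ± 0.26, adjusted p = 3.7e-09), and replicate 1 was the lowest of the LLC1 libraries.

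Per length, Vegfa was 48.1 ± 1.16% of the summed level of Vegfa, Vegfb and Vegfc in LLC1 and 74.3 ± 1.63% in MLE12, and Vegfb was 50.2 ± 1.11% in LLC1 and 25.4 ± 1.64% in MLE12 (SD, n = 4 each). The share of Vegfc was 1.62 ± 0.294% in LLC1 and 0.224 ± 0.0689% in MLE12. The sum of these 3 ligands, 60.9 ± 2.66 RPKM in LLC1 and 55.9 ± 2.82 RPKM in MLE12, overlapped between the lines, with a range of 57.7 to 63.2 RPKM in LLC1 and 53.9 to 60.04 RPKM in MLE12. Summed as CPM, without dividing by length, these ligands were instead higher in every MLE12 library than in any LLC1 library. The sum leaves out Figf, at 2.17 ± 0.189 RPKM in LLC1 and 0.967 ± 0.114 RPKM in MLE12, and Pgf, at 0.593 ± 0.174 RPKM in LLC1 and 0.144 ± 0.0311 RPKM in MLE12. Ordered by level per length, LLC1 ran Vegfb (30.6 RPKM), Vegfa (29.3), Pdgfc (10.4), Pdgfa (1.97), Pdgfra (1.52), Vegfc (0.992), Pdgfrb (0.293), Kdr, Pdgfb and Pdgfd. In LLC1 the ranges of Vegfb and Vegfa overlapped, as did those of the last 3 genes, all under 0.04 RPKM. MLE12 ran Vegfa (41.6 RPKM), Vegfb (14.2), Pdgfa (13.0), Pdgfb (2.50), Pdgfrb (1.02), Pdgfd (0.243), Pdgfc (0.143), Vegfc (0.125), Pdgfra (0.0299) and Kdr (0.0251). In MLE12 the ranges of Vegfb and Pdgfa overlapped, as did those of Pdgfc and Vegfc and those of Pdgfra and Kdr.

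**Figure D2:**
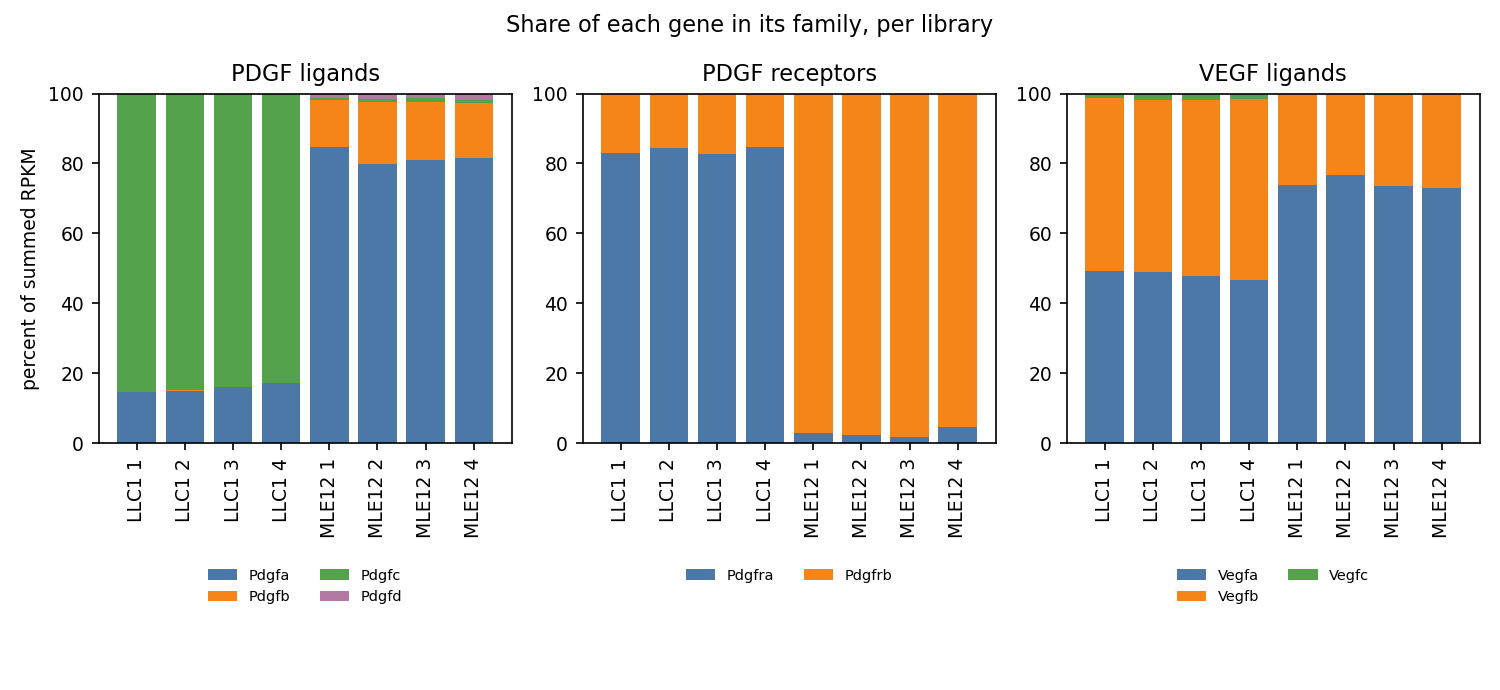
Percent of the summed RPKM that each gene contributed within the PDGF ligands, the PDGF receptors and the VEGF ligands Vegfa, Vegfb and Vegfc; each bar is 1 library, LLC1 left of MLE12. Pdgfc fills 82.6 to 85.2% of the PDGF ligand level in LLC1 and under 1.2% in MLE12, and the receptor panel is mostly Pdgfra in LLC1 and mostly Pdgfrb in MLE12.

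Kdr (ENSMUSG00000062960, chromosome 5, 75932827 to 75978458), the principal VEGF-A receptor, was near the limit of detection in both lines. Its raw counts were 0, 14, 4 and 0 in the LLC1 libraries, against 26, 8, 10 and 8 in the MLE12 libraries, and the lines overlapped, with 14 of the 18 LLC1 counts in replicate 2. Only 1 library of each line passed the level required by the filter, so Kdr was not among the genes tested. The summed counts, 18 in LLC1 and 52 in MLE12, gave a level 2.03-fold higher in MLE12 with a 95% interval of 1.17 to 3.68 for counting error alone. When the fit was run with no filter, its log2 fold change was -1.06 ± 0.70 (adjusted p = 0.199 by edgeR's quasi-likelihood test), so no difference was called. The few counts also varied between libraries of the same line. In cultures of 1 line, as in any bulk sample, fewer cells that use a gene and less RNA per cell cannot be told apart. Of the 14 endothelial markers listed for comparison, Tie1, Emcn and Erg had no count in any library. Pecam1 stood at 0.247 ± 0.0428 CPM in LLC1 cells and 0.209 ± 0.103 CPM in MLE12 cells, and Cdh5 at 0.233 ± 0.0888 CPM in LLC1 cells and 0.0226 ± 0.0161 CPM in MLE12 cells (SD, n = 4 each). Of the 5 tested, 1 was called toward LLC1 and 2 toward MLE12. One of the genes toward MLE12 was Tek, the angiopoietin receptor gene, at 0.0563 ± 0.0890 CPM in LLC1 cells and 2.95 ± 0.284 CPM in MLE12 cells. The summed level of the endothelial list was 14.4 to 16.3 CPM across LLC1 libraries and 5.58 to 6.81 CPM across MLE12 libraries. Egfl7 made up most of it in LLC1, at 14.2 ± 0.639 CPM there and 1.43 ± 0.142 CPM in MLE12.

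Of the 10 members, 9 were tested. The 4 called higher in LLC1 were Pdgfra, Pdgfc, Vegfb and Vegfc, where 40.7% of all genes tested were called in that direction. The 5 called higher in MLE12 were Pdgfrb, Pdgfa, Pdgfb, Pdgfd and Vegfa, beside 40.9% of all genes. The ranges of CPM did not overlap for any of these 9. With 81.6% of all genes called in either direction, and such separate ranges in 76.3% of them, a call is the usual state of a gene here. A second test required more than a 2-fold difference (edgeR's glmTreat), which 33.7% of genes passed, 16.7% higher in LLC1 and 16.9% higher in MLE12. By that rule 3 members were higher in LLC1 (Pdgfra, Pdgfc and Vegfc) and 4 higher in MLE12 (Pdgfrb, Pdgfa, Pdgfb and Pdgfd). Vegfa did not pass it, and Vegfb lay at its threshold (adjusted p = 0.0543), passing in 6 of 17 other settings and with an adjusted p of 0.00814 to 0.583 over all of them. The settings that passed included leaving out LLC1 replicate 1 or 2 and leaving out MLE12 replicate 1 or 4. The median log2 fold change was -0.51 over the 9 members tested and 0.02 over all genes. Since Pdgfb and Pdgfd passed the filter only where they were high, the counts and the median describe the members and are no evidence about the family.

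**Figure D3:**
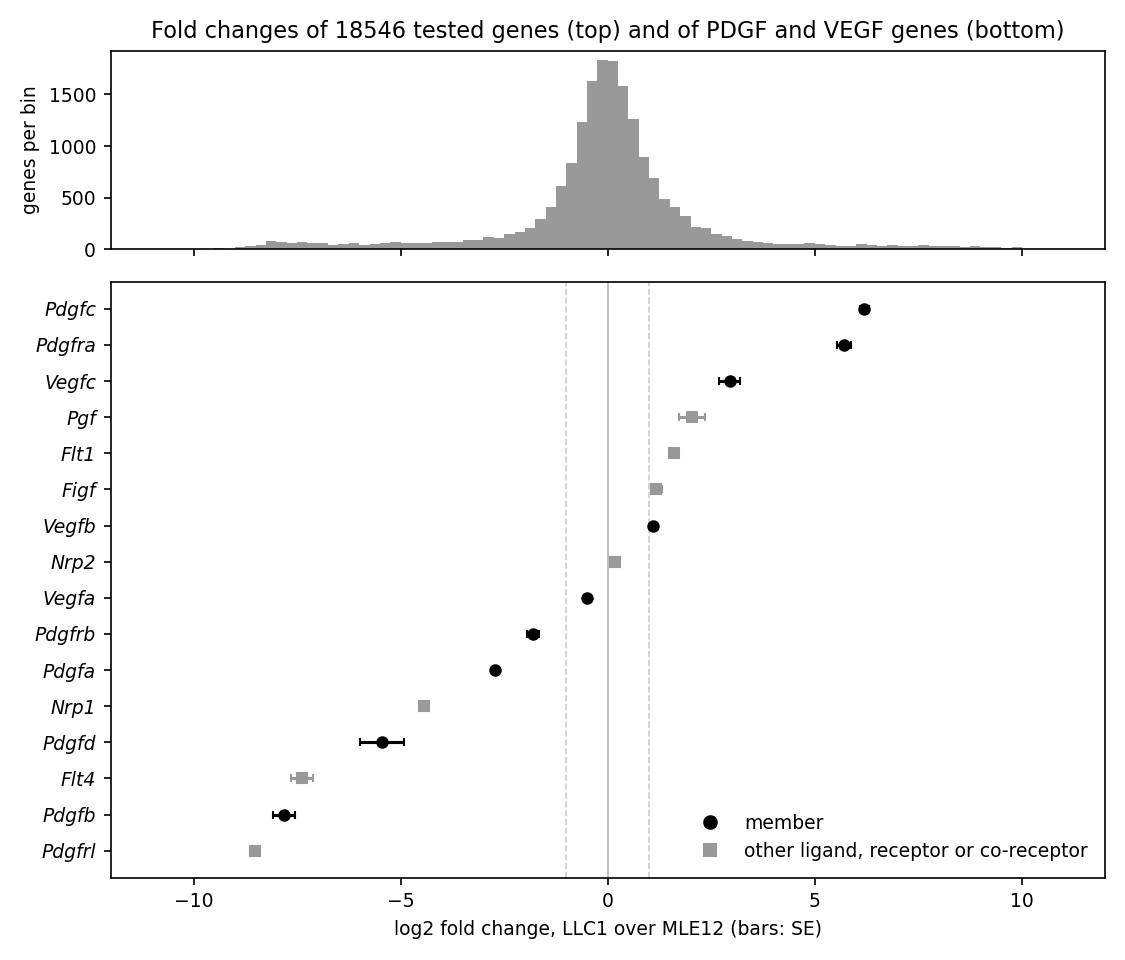
Top, the number of genes per bin of 0.25 in log2 fold change, LLC1 over MLE12, for 18546 tested genes; bottom, the same measure for 9 members (circles) and 7 other ligands, receptors and co-receptors (squares), with SE as bars and dashed lines at a 2-fold difference. Vegfa, Vegfb and Nrp2 lie in the crowded centre, while Pdgfc and Pdgfra lie far to the right and Pdgfb, Flt4 and Pdgfrl far to the left.

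The remaining VEGF receptors and ligands of the families were tested as well, and of these 7 genes 4 were called with more in LLC1 and 3 with more in MLE12, or 2 and 3 when over 2-fold was required. Flt4 and Pdgfrl passed the filter through the MLE12 libraries alone, so these counts and the median log2 fold change of 0.18 are descriptions of the 7 genes. Flt1, which encodes a high-affinity receptor for VEGF-A, VEGF-B and placental growth factor, had 12.2, 13.2, 12.5 and 11.3 CPM in the LLC1 libraries, against 4.33, 4.51, 3.91 and 3.5 CPM in the MLE12 libraries (1.59 ± 0.09, adjusted p = 8.1e-12). Flt4, the receptor gene for VEGF-C and VEGF-D, had 0, 4, 2 and 2 counts in the LLC1 libraries, against 528, 592, 594 and 307 counts in the MLE12 libraries. Its summed counts gave a level 177-fold higher in MLE12 (95% interval 89.8 to 411 for counting error; adjusted p = 1.9e-15). Thus Flt4 was higher in the line with less Vegfc, and Flt1 in the line with more Vegfb.

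Pgf, the placental growth factor gene, was low, with a mean of 0.938 ± 0.276 CPM in LLC1 cells and 0.228 ± 0.0492 CPM in MLE12 cells (2.03 ± 0.31, adjusted p = 6.1e-06; SD, n = 4 each). Figf, the gene of VEGF-D, stood at 5.24 ± 0.455 CPM in LLC1 cells and 2.33 ± 0.274 CPM in MLE12 cells (1.18 ± 0.13, adjusted p = 6.2e-08). The neuropilins, co-receptors that bind VEGF ligands and semaphorins, parted. Nrp1 had 10.7, 11.0, 12.4 and 11.0 CPM in the LLC1 libraries, against 237, 247, 256 and 240.3 CPM in the MLE12 libraries, 21.8-fold higher in MLE12 (-4.44 ± 0.06, adjusted p = 2.9e-22). Nrp2 was abundant in both, at 255 ± 3.68 CPM in LLC1 cells and 226 ± 6.60 CPM in MLE12 cells, a difference that passed the test but was only 1.13-fold (0.18 ± 0.04, adjusted p = 4.5e-04). Pdgfrl, which encodes a secreted protein resembling the extracellular part of PDGF receptors, had 5, 5, 3 and 6 counts in the LLC1 libraries, against 2684, 2734, 2926 and 1837 counts in the MLE12 libraries (-8.53 ± 0.12, adjusted p = 1.4e-21). Per length its level in MLE12 was 11.6 RPKM, beside 2.50 RPKM for Pdgfb and 1.02 RPKM for Pdgfrb in the same line.

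In the pathway lists that follow, the counts describe the listed genes, and most genes tested were called as well. Of 12 genes whose products release or modify the ligands, 11 were tested, of which 6 were called toward LLC1 and 4 toward MLE12 while 1 was not called, with a median log2 fold change of 0.30. Over 2-fold, 5 were higher in LLC1 and 4 in MLE12. Shares over all genes tested were 40.7% toward LLC1 and 40.9% toward MLE12, and over 2-fold 16.7% and 16.9%. Pcsk6 passed the filter on low counts through the LLC1 libraries alone, and Pcsk5 through the MLE12 libraries alone. Plat, which encodes tissue plasminogen activator, a protease that activates PDGF-C, stood at 14.7 ± 1.96 CPM in LLC1 cells and 176 ± 6.21 CPM in MLE12 cells (-3.58 ± 0.07, adjusted p = 1.9e-17; SD, n = 4 each). Plau, which encodes urokinase, a protease that activates PDGF-D, stood at 188 ± 4.36 CPM in LLC1 cells and 21.3 ± 1.70 CPM in MLE12 cells (3.14 ± 0.05, adjusted p = 3.4e-20). Each activator gene was thus lower in the line with more of its ligand, although neither was absent from that line. Ccbe1, an extracellular cofactor of VEGF-C processing, went the same way as Vegfc, at 25.5 ± 0.577 CPM in LLC1 cells and 0.0951 ± 0.0696 CPM in MLE12 cells (7.93 ± 0.17, adjusted p = 7.9e-19). Adamts1, whose product binds and sequesters VEGF-A, was higher in LLC1 (3.56 ± 0.11). The proprotein convertase gene Pcsk5 (-7.46 ± 0.22) and the angiogenesis inhibitor gene Thbs1 (-5.36 ± 0.09) were higher in MLE12. The convertase genes differed among themselves, since Pcsk6 had 901 counts in LLC1 and 7 counts in MLE12, and Furin stood at 104 ± 7.55 CPM in LLC1 cells and 103 ± 8.15 CPM in MLE12 cells without passing the test (adjusted p = 0.833 by edgeR).

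Adaptors and enzymes close to the receptors are read beside all genes tested, of which 40.7% were called toward LLC1 and 40.9% toward MLE12. Of 32 listed, 30 were tested, 13 called toward LLC1 and 14 toward MLE12, and 3 were not called, with a median log2 fold change of 0.03. Over 2-fold, 5 were higher in LLC1 and 4 in MLE12. The adaptor genes Sh2b3 (2.52 ± 0.05), Grb10 (1.97 ± 0.05) and Gab2 (1.78 ± 0.08) were higher in LLC1. The transcription factor genes Stat5a (-3.15 ± 0.07) and Stat3 (-1.51 ± 0.05) and the phosphatase gene Ptpn11 (-1.37 ± 0.05), whose product relays growth factor signals to the Ras pathway, were higher in MLE12. Among 16 attenuators tested, 6 were called toward LLC1 and 9 toward MLE12, and 1 was not called (median -0.29). Over 2-fold, 4 attenuators were higher in LLC1 and 4 in MLE12. Spry4, a feedback inhibitor of receptor tyrosine kinase signalling, stood at 141 ± 6.23 CPM in LLC1 cells and 3.24 ± 0.286 CPM in MLE12 cells (5.44 ± 0.06; SD, n = 4 each), while its paralog Spry1 was higher in MLE12 (-2.88 ± 0.10). Lrig1 (3.67 ± 0.06) and Errfi1 (2.24 ± 0.05), negative regulators of receptor tyrosine kinases, were higher in LLC1. Ptprb, the phosphatase known to restrain vascular receptors, stood at 0.269 ± 0.0585 CPM in LLC1 cells and 39.8 ± 3.0 CPM in MLE12 cells (-7.20 ± 0.12), and the scaffold gene Slc9a3r2 was also higher in MLE12 (-2.00 ± 0.07).

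Among 13 tested regulators of Vegfa transcription and mRNA stability, 3 were called toward LLC1 and 9 toward MLE12, and 1 was not called (median -0.37). Over 2-fold, 2 were higher in LLC1 and 2 in MLE12. Of all genes tested, 40.7% were called toward LLC1 and 40.9% toward MLE12, and over 2-fold 16.7% and 16.9%. Hif1a, the hypoxia-inducible factor gene, stood at 344 ± 3.28 CPM in LLC1 cells and 103 ± 3.15 CPM in MLE12 cells (1.74 ± 0.04, adjusted p = 2.7e-18; SD, n = 4 each), opposite in direction to Vegfa. Egln3, a prolyl hydroxylase gene that is itself a hypoxia target, was also higher in LLC1, at 222 ± 14.4 CPM there and 7.14 ± 0.80 CPM in MLE12 (4.96 ± 0.08). Sp1, which encodes a factor that binds GC boxes, was slightly higher in LLC1 (0.31 ± 0.04). Zfp36, whose product destabilises Vegfa mRNA, was higher in MLE12 (-1.70 ± 0.07), as were Vhl (-0.95 ± 0.05) and Egln2 (-0.84 ± 0.05), which act in oxygen-dependent turnover of the factor. Epas1, the other main hypoxia-inducible factor gene, had too few counts to be tested.

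Markers of cells that usually carry the PDGF receptors did not move as a block. The summed fibroblast list stood at 1696 to 1815 CPM across LLC1 libraries (not divided by length), most of it Col3a1, and at 393 to 435 CPM across MLE12 libraries, most of it Dcn. Of 9 fibroblast markers tested, 4 were called toward LLC1 and 5 toward MLE12, and Tcf21 had no count in either line. Col1a1 was at 0.313 ± 0.0164 CPM in LLC1 cells and 17.5 ± 0.626 CPM in MLE12 cells, and Dcn at 2.34 ± 0.117 CPM in LLC1 cells and 319 ± 15.8 CPM in MLE12 cells (SD, n = 4 each). In the direction of Pdgfra, Col3a1 was at 1478 ± 59.1 CPM in LLC1 cells and 2.70 ± 0.969 CPM in MLE12 cells, and Prrx1, a mesenchymal transcription factor gene, at 236 ± 7.62 CPM in LLC1 cells and 11.5 ± 1.17 CPM in MLE12 cells. Twist2 (1.73) and Dpt (7.53) were also higher in LLC1 by log2 fold change. The pericyte and smooth muscle list summed to 4.67 to 6.22 CPM across LLC1 libraries and 156 to 178 CPM across MLE12 libraries, nearly all of it Mcam in MLE12. Of 7 tested, 1 was called toward LLC1 and 4 toward MLE12, and 2 were not called. Its defining members were near the floor in both lines, with Rgs5 at 0.135 ± 0.0855 CPM in LLC1 cells and 0.168 ± 0.0709 CPM in MLE12 cells, and Cspg4 at 0.120 ± 0.0490 CPM in LLC1 cells and 0.148 ± 0.0427 CPM in MLE12 cells. Myh11 stood at 0.274 ± 0.117 CPM in LLC1 cells and 0.218 ± 0.0446 CPM in MLE12 cells without passing the test (adjusted p = 0.482 by edgeR). The part of these markers in the receptor differences was not tested.

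Pdgfra, the receptor tyrosine kinase gene Kit and Kdr lie next to one another on chromosome 5, with 735 kb between the end of Pdgfra and the start of Kdr in the deposited coordinates. The 3 neighbours did not share a pattern. Kit had 0 counts in every LLC1 library, against 80, 71, 86 and 53 counts in the MLE12 libraries. With 3 counts allowed over the LLC1 libraries, Kit was at least 67.9-fold higher in MLE12, which is the direction opposite to Pdgfra. The lower 95% limit was 54.8-fold when the counting error of both lines was included. Within 1 Mb on either side of this stretch the table lists 41 genes, of which 13 had no count, Gsx2 among them, and 20 were tested. Of these, 5 were called toward LLC1 and 11 toward MLE12, and 4 were not called. Over 2-fold, Pdgfra was the 1 gene higher in LLC1, and 4 were higher in MLE12. Of all genes tested, 40.7% were called toward LLC1 and 40.9% toward MLE12, and over 2-fold 16.7% and 16.9%. The window was placed around Pdgfra and Kdr, so its counts only describe this stretch. Chic2, the nearest tested gene before Pdgfra, stood at 29.1 ± 1.53 CPM in LLC1 cells and 29.5 ± 3.45 CPM in MLE12 cells (-0.02 ± 0.07, adjusted p = 0.84 by edgeR; SD, n = 4 each). Of 14 genes of at least 10 CPM in 1 line, 12 lay between -0.97 (Clock) and 0.60 (Aasdh) in log2 fold change, with Srd5a3 (0.55 ± 0.07) and Tmem165 (-0.63 ± 0.05) among them. The other two were Pdgfra and C530008M17Rik (-5.19 ± 0.12). The microRNA gene Mir7025 shares 30 exonic bases with Pdgfra and had 43 counts in LLC1 and 3 in MLE12, which cannot be told apart from Pdgfra reads.

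**Figure D4:**
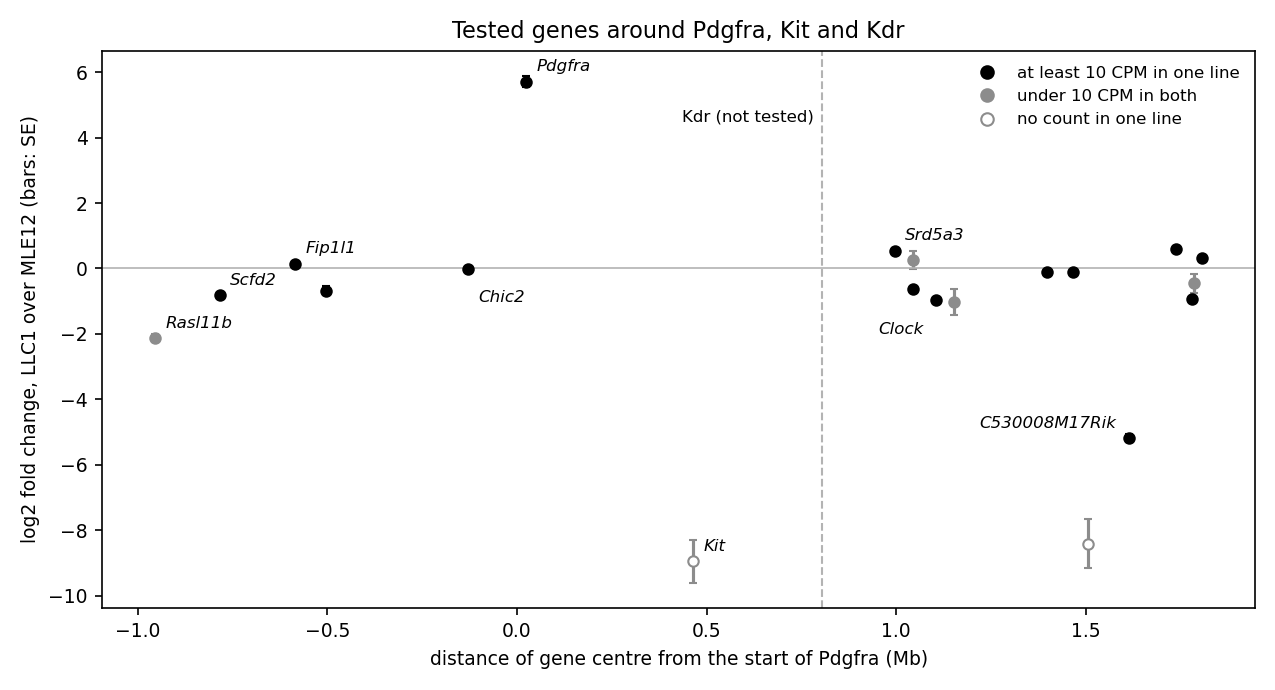
Log2 fold change, LLC1 over MLE12, of the 20 tested genes around Pdgfra, Kit and Kdr, by distance of the gene's centre from the start of Pdgfra in Mb; bars are SE, grey points are under 10 CPM in both lines, and open points had no count in LLC1, so that their fitted values are no bounds. Pdgfra stands alone above, Kit is on the opposite side, and 12 of the 14 genes of at least 10 CPM lie between -0.97 and 0.60.

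The genes whose pattern over the 8 libraries lay closest to that of Pdgfra were Tiam2, Steap1 and Prkg2, with root mean square differences of 0.121, 0.164 and 0.179 in centred log2 CPM. Their log2 fold changes were 5.23 ± 0.08, 5.04 ± 0.09 and 5.17 ± 0.10. Closest to Vegfa were Csnk1d, Samd1 and Map1lc3b, with differences of 0.0234, 0.0355 and 0.0390 and log2 fold changes of -0.50 ± 0.04, -0.52 ± 0.05 and -0.51 ± 0.04. With only 2 lines, the measure depends largely on the size of the difference between them. For Pdgfra it also depends on the 0.1 CPM added before taking log2. With a mean of 0.202 CPM in MLE12, that addition narrows the difference of Pdgfra between the lines.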

How the data were processed

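The authors deposited raw counts per gene for 8 libraries, with gene name, position and a length in bases (another value, not a measurement). The tools named per the submitters' processing notes are CASAVA, TopHat2, featureCounts and edgeR, and the build is mm10. Their versions, the annotation release and the settings for strand and for multiple alignments are not given in the sources used here. In each library more genes had 2 counts than 1 (in LLC1 replicate 1, 1392 and 1130 genes), as where mates are counted separately. Intervals and floors treat counts as independent, so PCR copies without molecular identifiers and mates counted separately would make them too narrow even for counting error. Libraries of a line differed beyond counting noise, with a chi-square of 6.35 to 53.1 per degree of freedom, so each was kept as a replicate in the fits. Counts were summed over a line only for count ratios, whose intervals leave that spread out.

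Lines were taken from the cell line label. Counts were fitted with edgeR 4.0.16 in R 4.3.3, with filterByExpr by line, TMM scaling (factors 0.924 to 1.04), robust glmQLFit and glmQLFTest without covariates, and Benjamini-Hochberg adjustment called under 0.05. The second test was glmTreat against a fold of 2. The SE is the log2 fold change divided by the square root of F. RPKM was computed from the scaled counts and the deposited length. Lengths equalled the merged exon length in GENCODE M21 for 4 of the 10 members, and overlaps were read from M21. Likeness used log2(CPM + 0.1). Alternatives were DESeq2 1.42.0, limma-voom (limma 3.58.1), other scalings and filters, a replicate block, removal of the 20 most abundant genes and leaving out each library; M21 lengths were added after seeing the data.

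On simulated counts for the same 18546 genes the fit of LLC1 against MLE12 called 47 of 50 genes changed 1.5-fold, 49 of 50 at 2-fold, 50 of 50 each at 4-fold and 8-fold, and 10 of 18346 unchanged genes. The changed genes were balanced in direction and had a mean of at least 1 CPM in MLE12. In the data 81.6% of genes were called. The simulation therefore does not show how the fit performs with so many differences, or on changed genes under 1 CPM. The members, lists and naming rule were chosen with earlier results of these data known. The text names all members, the other ligands and receptors, the 3 largest called changes per direction in each pathway list among genes that reach 10 CPM in a line, locus neighbours, the 3 most alike genes for Pdgfra and for Vegfa, and defining markers. Named outside the rule, after their values were seen, were Mcam, Col3a1, Egfl7, Tie1, Emcn, Erg, Tcf21, Epas1, Pcsk6, Furin, Prrx1, Twist2, Dpt, Foxa2, Krt19, Sftpa1, Cldn18, Cd68, Csf1r and the overlapping genes.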

Additional observations from a re-analysis of the deposited data

Results flagged for a closer look

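The Pdgfrb level of LLC1 replicate 2, 1.35 CPM, lay apart from the other 3 LLC1 libraries, with a gap of 0.837 of the range of the 4, just above Dixon's critical value for 4 values at the 95% level. It was the 1 such case among 36 sets of 4 libraries for 18 genes, although Kit in LLC1, with no count in any library, could not be looked at. Chance gives about 1 in 20 for normally distributed values, a rate that need not hold for sets with few counts. Without that library the log2 fold change of Pdgfrb was -1.71 ± 0.15 (adjusted p = 9.5e-09 by edgeR), against -1.80 ± 0.14 with it.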

How the results depend on the processing

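All 152 log2 fold changes of tested members recomputed under 17 other settings kept their direction and their side of the threshold. Over the settings that kept all libraries Pdgfra ran from 5.61 to 5.77, Vegfa from -0.61 to -0.45 and Vegfb from 1.01 to 1.16. Pdgfd was not tested where 1 CPM in 4 libraries was required. Pdgfb, with 6 counts in LLC1, ran from -8.84 to -7.44 when 1 library was left out, and Pdgfd from -6.39 to -5.10. Library totals alone shifted the median of all genes by -0.10. Whether the replicate numbers pair the libraries cannot be decided from 4 libraries per line. Correlations of same-numbered deviations were -0.0840 to 0.132, and 4 of 8 libraries correlated best with their own number. With the replicate block, 7380 genes were called toward LLC1 and 7415 toward MLE12, against 7554 and 7578 without it, and no member's call changed. Shares moved with the length used. Without dividing by length, Pdgfa was 10.3% and Pdgfc 89.6% of PDGF ligands in LLC1, and Pdgfc 1.47% in MLE12; Vegfa was 71.2% of VEGF ligands in LLC1 and 88.5% in MLE12, Vegfb 27.8% in LLC1 and 11.3% in MLE12, Vegfc 1.05% in LLC1 and 0.117% in MLE12, and Pdgfra 86.4% of PDGF receptors in LLC1. With GENCODE M21 lengths, chosen after seeing the data, Pdgfa was 85.8% and Pdgfb 11.6% of PDGF ligands in MLE12, Vegfc 1.25% of VEGF ligands in LLC1 and Pdgfra 77.7% of PDGF receptors in LLC1. The near-equality of Vegfa and Vegfb in LLC1 therefore holds per length only, as does the overlap of the summed VEGF ligands. Summed as CPM, the VEGF ligands were higher in MLE12 and the PDGF ligands higher in LLC1, each without overlap. Low counts limit Kdr in both lines and Pdgfb and Pdgfd in LLC1, and for Kdr the spread between libraries of a line adds to this.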
